A study of Mus musculus with 8 samples.

Results

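Genes on the distal part of mouse chromosome 9 were compared between Ba/F3 cells transformed with U2AF35 carrying S34F (n = 5 libraries, replicates 4 to 8) and parental Ba/F3 cells with wild-type U2AF35 (n = 3 libraries, replicates 1 to 3). Ba/F3 is an immortalised mouse pro-B cell line of C3H background, and U2AF35 is the smaller part of the U2AF splicing factor, which binds at the end of introns. All 8 libraries were polyA RNA sequenced from this line, without a second strain or tissue, and nothing in the labels tells whether replicates were separate cultures or clones. All p-values therefore measure the spread between these libraries, which may be technical. The members were the genes of the count table that start at 80 Mb or beyond on chromosome 9 (GRCm38) and that reached a mean of 0.5 CPM (counts scaled to the size of each library) over the 8 libraries. These were 317 genes of 1074 annotated in that stretch, 667 of which had at least 1 count, and of 53465 genes in the table. The rest of chromosome 9, with 490 genes at the same level, served as the comparison, beside 14654 genes on other chromosomes. The stretch and its limit had been chosen because the log2 CPM of transformed 4 was known to differ there, so the levels below are a description, and no test of that difference is given.

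Genes lie along a mouse chromosome in a fixed order, and each is read from its own promoter. Neighbouring genes in mammals mostly have unrelated functions, and this stretch holds genes as different as the replication checkpoint kinase Atr, the small G protein Rhoa, the beta-catenin gene Ctnnb1 and a cluster of chemokine receptors near its end. The counts measure RNA, and DNA copy number was not analysed here. In bulk RNA, fewer cells that express a gene and less RNA per cell cannot be told apart.

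Library totals ran from 36122062 counts in transformed 7 to 50305573 in parental 1, and the upper limit for a gene at 0 (3 counts) lay between 0.0596 and 0.0831 CPM (counting error only). Of the markers of the labelled cell type, Cd79a and Cd79b reached 1 CPM in all libraries, and the other 10 of 12 early B lineage genes, among them Ebf1, Pax5, Rag1 and Il7r, stayed under 1 CPM in all. Summed over 6 mast cell and basophil markers, the level ran from 6.73 to 149 CPM in transformed libraries, with transformed 4 the highest, and from 30.1 to 83.1 CPM in parental ones, while Kit and Fcer1a were at 0 counts throughout and 2 of the 6 genes reached 1 CPM in all libraries. All 3 IL-3 receptor genes did so. Their sum ran from 1455 to 6005 CPM in transformed libraries, with transformed 4 the highest, and from 5464 to 7789 CPM in parental ones. By contrast, 5 of 5 T cell and 5 of 5 stroma markers stayed under 1 CPM. The part of these markers in the results was not tested.

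Promoter sequences of 4 members are shown first, since they belong to genes that stood on different sides of the pattern described below. Senp6 is the first member and was at the parental level in transformed 4, Ttk lies a few megabases further on and was lower there, Pik3cb was among the lowest, and Ctnnb1 was higher. Each is the 250 bases before the RefSeq start (GRCm38.p6), 5′ to 3′ on the strand of the gene, at chr9:80066653-80066902 (plus strand) for Senp6, chr9:83834439-83834688 (plus) for Ttk, chr9:99140212-99140461 (minus) for Pik3cb and chr9:120933150-120933399 (plus) for Ctnnb1. Capitals mark the Sp factor motif, spelled GGGCGG here and called the GC box below, on either strand. They also mark the motif of the factor NF-Y, spelled CCAAT, on either strand.
Senp6: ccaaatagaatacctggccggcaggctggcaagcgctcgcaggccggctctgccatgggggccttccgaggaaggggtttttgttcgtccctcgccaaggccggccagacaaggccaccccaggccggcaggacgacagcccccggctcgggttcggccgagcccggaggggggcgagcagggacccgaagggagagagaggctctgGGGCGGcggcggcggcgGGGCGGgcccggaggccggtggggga
Ttk: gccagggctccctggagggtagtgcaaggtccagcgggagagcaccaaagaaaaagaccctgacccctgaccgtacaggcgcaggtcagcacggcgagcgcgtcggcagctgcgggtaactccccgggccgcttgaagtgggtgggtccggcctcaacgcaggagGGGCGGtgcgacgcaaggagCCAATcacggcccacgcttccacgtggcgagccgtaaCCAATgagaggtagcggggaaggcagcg
Pik3cb: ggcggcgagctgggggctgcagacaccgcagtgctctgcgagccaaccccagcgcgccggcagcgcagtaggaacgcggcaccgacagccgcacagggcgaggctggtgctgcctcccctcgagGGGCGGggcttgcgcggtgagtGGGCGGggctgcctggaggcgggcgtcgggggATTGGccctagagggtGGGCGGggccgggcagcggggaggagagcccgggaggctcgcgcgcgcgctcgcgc
Ctnnb1: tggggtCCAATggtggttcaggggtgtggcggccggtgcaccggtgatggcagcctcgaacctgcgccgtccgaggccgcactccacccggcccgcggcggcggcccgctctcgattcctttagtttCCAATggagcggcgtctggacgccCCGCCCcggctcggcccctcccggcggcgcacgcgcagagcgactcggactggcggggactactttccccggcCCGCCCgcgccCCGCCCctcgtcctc

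A promoter of this kind was found for 226 of the 317 members. The GC box stood in 63.7% of these, against 32.7% of all 32851 promoters of the same length, and the NF-Y motif in 39.8%, against 33.8%. The motif of the TATA-binding protein, searched as TATAAA on either strand, stood in 6.19% and 12.4%. The 32851 promoters were not limited to genes at the CPM level of the members. Median GC content was 58.8% in the promoters of members and 52.4% in all. The shares are therefore not read as a trait of this stretch. Members with and without a motif had median log2 differences in transformed 4 of -0.48 and -0.40 for the GC box and -0.47 and -0.46 for the NF-Y motif. A match is a description of letters, and neither pair was tested.

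In transformed 4 most genes of this stretch from 85 Mb on were lower. The median log2 CPM of the 317 members, relative to the mean of the 3 parental libraries, was -0.40 in transformed 4, with quartiles of -0.58 and -0.17. In transformed 5, 6, 7 and 8 it was -0.0066, 0.0036, -0.028 and -0.013, against -0.029, 0.013 and 0.019 in parental 1, 2 and 3. By this median the 4 other transformed libraries lay among or next to the parental ones, and transformed 4 alone stood apart. Each parental library is part of the mean it is set against, which draws its differences toward 0. The SD over members was 0.56 in transformed 4 and 0.45, 0.48, 0.86 and 0.48 in transformed 5 to 8, against 0.18, 0.18 and 0.20 in parental 1 to 3. Over the rest of chromosome 9 the median in transformed 4 was -0.039, and over the other chromosomes it was 0.011. The gap between members and the rest of the chromosome was -0.36 in transformed 4. In transformed 5 to 8 the gap was -0.0025, -0.0052, -0.038 and -0.018, against -0.017, 0.016 and 0.0028 in parental 1 to 3.

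**Figure D1:**
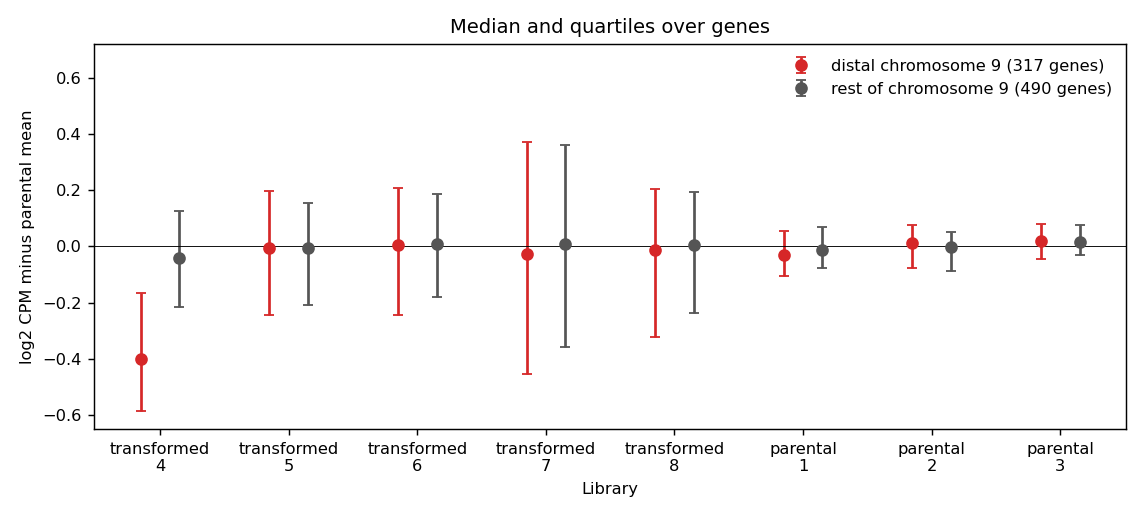
Median log2 CPM minus the parental mean (vertical axis, log2 scale) over 317 distal chromosome 9 genes (red) and 490 genes of the rest of the chromosome (grey) in each library, with bars from the lower to the upper quartile over genes. The distal median of transformed 4 lies at -0.40, and all other medians lie close to 0.

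Of the members, 258 (81.4%) were below the parental mean in transformed 4, against 276 of 490 (56.3%) on the rest of chromosome 9. In transformed 5 to 8 between 49.8% and 51.1% of members were below it. Members held 1.64% of all counts in transformed 4 and 2.13%, 2.13%, 2.01% and 2.10% in transformed 5 to 8, against 2.14%, 2.14% and 2.21% in parental 1 to 3. The rest of chromosome 9 held 4.61% in transformed 4, between 4.74% and 4.87% in the other transformed libraries, and between 4.62% and 4.76% in the parental ones. Transformed 4 was the lowest of the 8 libraries for 169 members (53.3%), against a background of 16.4% over all 15486 genes at this level, and the highest for 18 (5.68%), against 18.2%. Transformed 7, which varied most between genes, was the lowest for 73 members (23.0%), against 28.4% of the genes on other chromosomes. Because the members were chosen on these values, nothing is read from these shares.

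**Figure D2:**
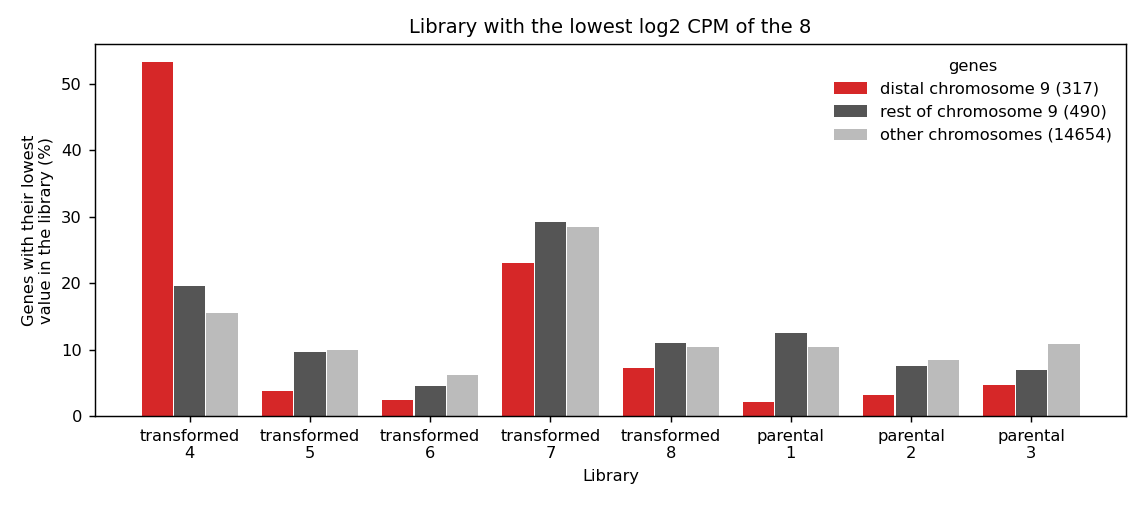
Share of genes whose lowest log2 CPM of the 8 libraries was in the library named on the horizontal axis (vertical axis, percent of genes), for distal chromosome 9 (red), the rest of chromosome 9 (dark grey) and other chromosomes (light grey). Transformed 4 held the lowest value of 53.3% of distal members.

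By the medians of 5 Mb bins, the lower levels did not begin at the 80 Mb limit, although single genes soon after it were low. In bins of 5 Mb, the median in transformed 4 was -0.095 over 29 genes from 75 to 80 Mb and 0.015 over 12 genes from 80 to 85 Mb. These 12 include pseudogenes, and the 7 coding genes among them had a median of -0.074, with 4 below the parental mean. Myo6 (-0.44) and Ttk (61.8% of the parental mean) were already lowest in transformed 4, so the start of the lower levels is not fixed by so few genes. It was -0.30 over 27 genes from 85 to 90 Mb and -0.66 over 13 genes from 90 to 95 Mb. The following bins had -0.36, -0.52, -0.44, -0.46 and -0.42 up to 120 Mb (38, 19, 100, 42 and 24 genes), and the last had -0.31 (42 genes). From 85 Mb to the end of the chromosome the median in transformed 4 was thus below 0 in every bin, while the 16 bins below 80 Mb ran from -0.18 to 0.084. Bins of 12, 13 and 19 genes are thinly filled. Among 440 bins of 5 Mb with 10 genes or more in the genome, 6 of the 10 with the lowest medians in transformed 4 lay in this stretch. The others lay on chromosome 18 (-0.43 from 75 Mb and -0.37 from 45 Mb), chromosome 8 (-0.41 from 100 Mb) and chromosome 16 (-0.37 from 40 Mb). The stretch was chosen on these values, so nothing is read from this ranking. Transformed 4 also differed from the parental mean elsewhere in the genome, where its median log2 difference ran from -0.28 to 0.31 over the 19 other chromosomes. The lowest, chromosome 19, was as low in transformed 5 to 8 (from -0.41 to -0.31). Chromosome 18 was at -0.26 in transformed 4 and between 0.060 and 0.12 in transformed 5 to 8. Chromosome 14, the highest, was at 0.31 in transformed 4 and between 0.037 and 0.098 in transformed 5 to 8.

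No other library had a median below 0 in all 8 bins from 85 Mb on. In the bin from 105 to 110 Mb, the most gene-rich, the medians in transformed 5, 6, 7 and 8 were 0.00063, -0.052, -0.30 and -0.11, against -0.045, 0.048 and -0.0012 in parental 1, 2 and 3. In this bin transformed 7 was therefore also low, which it was not from 80 to 95 Mb, where its medians were 0.22, 0.26 and 0.16. Levels in transformed 7 differed with transcript GC content, at a median of 0.20 over 73 members under 45% GC and -0.43 over 68 members of 55% or more. In transformed 4 the medians of the same members were -0.45 and -0.42. On the rest of chromosome 9 the medians in transformed 7 were 0.18 over 147 genes under 45% GC and -0.078 over 80 genes of 55% or more. The part of GC content in these levels was not tested.

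**Figure D3:**
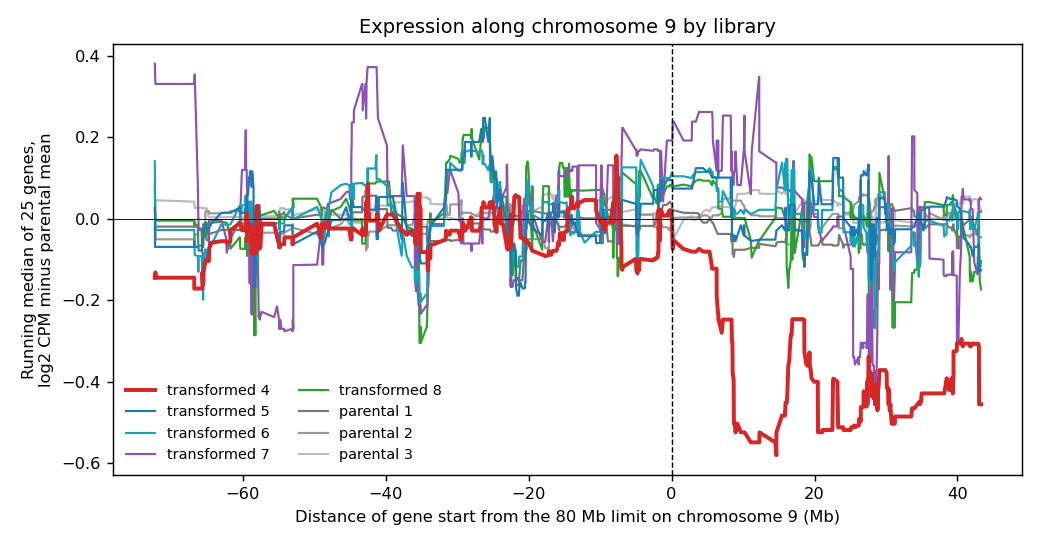
Running median over 25 neighbouring genes of log2 CPM minus the parental mean (vertical axis, log2 scale) against the distance of the gene start from the 80 Mb limit (horizontal axis, Mb, negative toward the centromere), 1 line per library. The line of transformed 4 leaves the others some megabases past the limit (its 5 Mb medians are 0.015 from 80 to 85 Mb and -0.30 or lower from 85 Mb on) and stays below 0 to the end of the chromosome.

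Genes at the proximal edge were taken in order. Just below the limit, Tmem30a, a subunit of phospholipid flippases (79768943 to 79793507), had 108, 119, 140.3, 213 and 134 CPM in transformed 4, 5, 6, 7 and 8, against 128, 132 and 133 CPM in parental 1, 2 and 3. Cox7a2, a subunit of cytochrome c oxidase, had 102, 121, 117, 94.9 and 116 CPM in transformed 4 to 8, against 103, 118 and 104 CPM in the parental libraries. The pseudogene Aldoa-ps4 had 9.45, 9.26, 9.701, 8.96 and 11.4 CPM in transformed 4 to 8, against 12.4, 9.31 and 8.17 CPM in the parental libraries. Tmem30a in transformed 4 was below all parental libraries, at a log2 difference of -0.28. Cox7a2 was just below them too, at -0.08, with transformed 7 lower still, and Aldoa-ps4 lay within the parental range.

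Just inside the limit, the SUMO protease gene Senp6 (protein coding, plus strand, 80066903 to 80144953) had 150.1, 164, 168, 185 and 170.1 CPM in transformed 4, 5, 6, 7 and 8, against 148, 148 and 148 CPM in parental 1, 2 and 3. All 5 transformed libraries were above the 3 parental ones, with transformed 4 the nearest to them. The antisense gene Gm17477, which lies within Senp6, had 1.39, 1.07, 1.19, 1.74 and 0.972 CPM in transformed 4 to 8, against 1.15, 0.899 and 0.745 CPM in the parental libraries, and its reads cannot be told apart from those of Senp6 if counting ignored strand. Myo6, a myosin that moves toward the minus end of actin (80165031 to 80311729), had 74.7, 104, 110.3, 126 and 105 CPM in transformed 4 to 8, against 109.6, 99.1 and 95.5 CPM in the parental libraries. Transformed 4 was the lowest library for Myo6, at 73.7% of the parental mean.

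Further in, Irak1bp1, which encodes a protein that binds the kinase IRAK, had 9.81, 13.2, 12.6, 14.3 and 12.98 CPM in transformed 4 to 8, against 10.7, 11.6 and 8.87 CPM in the parental libraries. Phip, a bromodomain protein (82866159 to 82975516), had 132, 128, 135, 123 and 129 CPM in transformed 4 to 8, against 121, 129.8 and 143 CPM in the parental libraries. In both, transformed 4 lay within the parental range. Ttk, the mitotic checkpoint kinase (83834689 to 83872389), had 42.1, 57.9, 59.7, 54.1 and 56.5 CPM in transformed 4, 5, 6, 7 and 8, against 69.6, 65.6 and 68.8 CPM in parental 1, 2 and 3, with transformed 4 the lowest and all transformed libraries below the parental ones. Bckdhb, of branched-chain amino acid breakdown, next to it, had 29.5, 42.1, 37.6, 39.7 and 37.1 CPM in transformed 4 to 8, against 28.4, 40.1 and 36.8 CPM in the parental libraries, where transformed 4 lay within the parental range. Ibtk, an inhibitor of Bruton's tyrosine kinase (85687360 to 85749334), had 74.4, 142, 165, 229.7 and 168 CPM in transformed 4, 5, 6, 7 and 8, against 107, 108 and 109 CPM in parental 1, 2 and 3. Here transformed 4 was below the parental libraries and the 4 other transformed ones were above them.

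The lower level in transformed 4 was found in protein-coding genes and in noncoding genes, but not in pseudogenes as a group. Of 239 protein-coding members, 217 were below the parental mean in transformed 4 (median -0.45, or 73.0% of it), and transformed 4 was the lowest library for 153. Of 41 noncoding or unclassified members, 31 were below it (median -0.45). Of 37 pseudogenes, 10 were below and 27 above (median 0.14), and transformed 4 was the highest library for 12. Reads of a processed pseudogene may come from a near-identical gene elsewhere, so their counts are uncertain. Protein-coding genes of the rest of chromosome 9 had a median of -0.046 (355 genes), with 200 below the parental mean.

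The more strongly expressed coding genes were low with few exceptions. From 85 Mb on, 104 coding members had a mean of 50 CPM or more, and in transformed 4 their log2 differences had a median of -0.46, quartiles of -0.58 and -0.32 and an SD of 0.36 over genes. Of these, 100 were below the parental mean. Relative to the mean of transformed 5 to 8 the median was -0.47, and 99 of 104 were below it. The 179 such genes on the rest of chromosome 9 had a median of -0.031 relative to the parental mean, with quartiles of -0.14 and 0.087. By level, the median over all members in transformed 4 was -0.36 from 0.5 to 5 CPM (83 genes), -0.38 from 5 to 50 CPM (117 genes) and -0.44 above that (117 genes). By length of the longest transcript it was -0.24 under 2 kb (105 genes), -0.42 from 2 to 5 kb (155 genes) and -0.52 at 5 kb or more (57 genes). These classes include the 37 pseudogenes (median 0.14), coding genes alone were not split by length, and the part of length was not tested. Median transcript GC content was 49.8% for members and 48.7% for the rest of the chromosome, and median length 2806 and 2799 bases.

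Of the 147 genes put in 8 functional lists, 127 were members and 20 were not, 19 of them on chromosome 9 but under the CPM limit. In the comparison of all transformed with all parental libraries, edgeR called 1 member lower in replication and repair, 2 in signalling, 1 in metabolism, 1 in survival, and 0 in either direction in the other 4. Over all tested genes 2.1% were called lower and 0.908% higher, and nothing is read from counts this small. In transformed 4 the median of every list was between -0.36 and -1.38, against 0.011 over the genes of other chromosomes. The lists were chosen from this stretch with earlier results known, and their medians describe it further without standing as separate evidence.

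**Figure D4:**
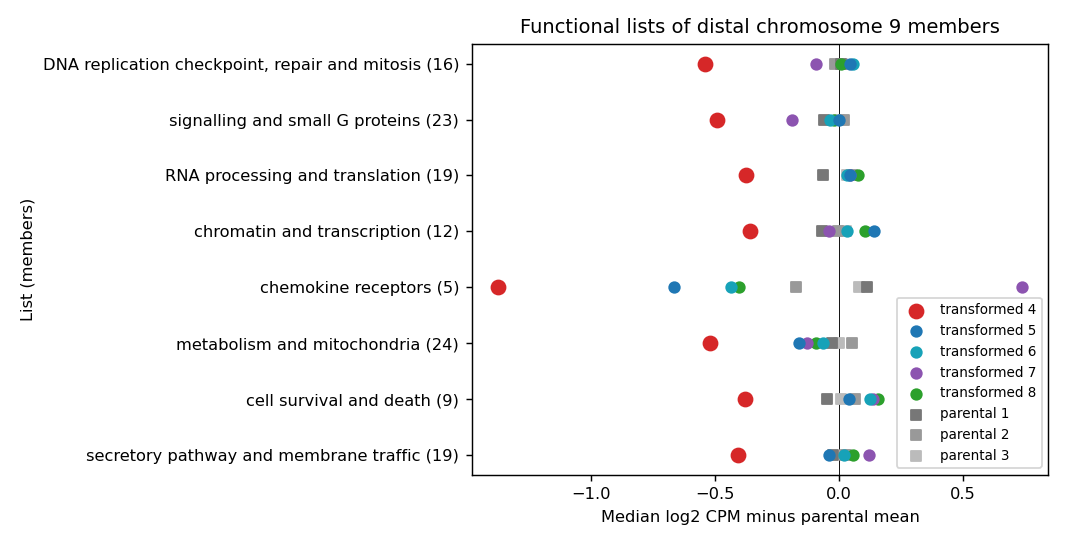
Median log2 CPM minus the parental mean (horizontal axis, log2 scale) of the members of 8 functional lists (vertical axis, number of members in parentheses), with circles for transformed and squares for parental libraries. Transformed 4 (red) is the lowest library in all 8 lists, from -0.36 in chromatin and transcription to -1.38 in chemokine receptors.

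In the list of replication checkpoint, repair and mitosis genes, 15 of 16 members were below the parental mean in transformed 4 (median -0.54) and 12 had their lowest level there. The checkpoint kinase Atr (95857597 to 95951781) had 62.1, 111, 122, 134 and 123 CPM in transformed 4, 5, 6, 7 and 8, against 94.7, 84.96 and 75.9 CPM in parental 1, 2 and 3. Transformed 4 was below the parental libraries, at 72.8% of their mean, and the other transformed libraries were above them. Topbp1, the activator of that kinase (103305215 to 103350428), had 320.3, 391, 391, 309.9 and 383 CPM in transformed 4, 5, 6, 7 and 8, against 497, 463 and 464 CPM in parental 1, 2 and 3. For Topbp1 all transformed libraries were below the parental ones, and transformed 7 was lower still than transformed 4. Rad54l2, a helicase-like protein, had 69.5, 97.4, 95.9, 103 and 102 CPM in transformed 4 to 8, against 84.2, 93.6 and 92.01 CPM in the parental libraries, and transformed 4 alone was low.

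Among 23 signalling members, 19 were below the parental mean in transformed 4 (median -0.49). Gnai2, an inhibitory G protein alpha subunit (107614125 to 107635367), had 376, 463, 467, 417 and 483 CPM in transformed 4, 5, 6, 7 and 8, against 591, 592 and 629 CPM in parental 1, 2 and 3. All transformed libraries were below all parental ones, and transformed 4 was the lowest. The small G protein gene Rhoa (108306129 to 108337934) had 198, 261, 268, 263 and 283 CPM in transformed 4, 5, 6, 7 and 8, against 253, 260.4 and 258 CPM in parental 1, 2 and 3, with transformed 4 at 77.1% of the parental mean and the other libraries together. Pik3cb, the beta catalytic subunit of phosphoinositide 3-kinase (99036654 to 99140621), had 29.1, 74.6, 86.3, 91.3 and 83.4 CPM in transformed 4, 5, 6, 7 and 8, against 87.4, 90.7 and 86.95 CPM in parental 1, 2 and 3, which puts transformed 4 at 32.9% of the parental mean.

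In RNA processing and translation all 19 members were below the parental mean in transformed 4 (median -0.38), from -0.69 to -0.019, and 16 had their lowest level there. Rpsa, a protein of the small ribosomal subunit and the member with the highest level (120127689 to 120132369), had 1565, 1931, 1969.7, 2028 and 1993 CPM in transformed 4, 5, 6, 7 and 8, against 1945, 1795 and 1939 CPM in parental 1, 2 and 3. Rpl14, of the large subunit, had 1104, 1169.5, 1187, 1247 and 1206 CPM in transformed 4, 5, 6, 7 and 8, against 1247, 1134 and 1251 CPM in parental 1, 2 and 3. Both were lowest in transformed 4, but Rpl14 was only at 91.3% of the parental mean and Rpsa at 82.7%. Syncrip, a heterogeneous nuclear ribonucleoprotein, had 213, 334, 314, 301 and 338 CPM in transformed 4 to 8, against 235, 267 and 255 CPM in the parental libraries, so that transformed 4 was below the parental libraries and the other transformed ones above them.

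Of 12 chromatin and transcription members, 10 were below the parental mean (median -0.36) and all 10 of these were lowest in transformed 4. Smarcc1, a core subunit of the SWI/SNF remodeller, had 172, 264, 240.5, 191 and 262 CPM in transformed 4 to 8, against 203, 222 and 221 CPM in the parental libraries. Ubp1, a transcription factor, had 130.3, 192, 190.3, 181 and 159 CPM in transformed 4 to 8, against 195, 189 and 190.5 CPM in the parental libraries. Wdr82, a subunit of histone methyltransferase complexes, had 123, 203, 171, 138 and 194 CPM in transformed 4 to 8, against 166, 182 and 176 CPM in the parental libraries. Transformed 4 was the lowest library for the 3 genes, and for Smarcc1 and Wdr82 transformed 7 was the next. The 2 members not below the parental mean were Phip and Zbtb38, a zinc finger protein that binds methylated DNA, which had 67.4, 61.7, 59.1, 51.5 and 64.7 CPM in transformed 4 to 8, against 56.4, 50.7 and 70.5 CPM in the parental libraries.

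Of 12 chemokine receptor genes, 5 were members, and transformed 4 was lowest for all 5 (median -1.38). The other transformed libraries differed too, with medians of -0.67, -0.44, 0.74 and -0.40 in transformed 5 to 8. Ccr1 (123962124 to 123968692) had 15.3, 27.1, 41.4, 184 and 60.4 CPM in transformed 4, 5, 6, 7 and 8, against 71.5, 54.4 and 59.5 CPM in parental 1, 2 and 3. Ccr2 (124101950 to 124113557) had 58.4, 89.5, 112, 196 and 106 CPM in transformed 4, 5, 6, 7 and 8, against 164, 131 and 163 CPM in parental 1, 2 and 3. For both, transformed 4 was lowest and transformed 7 highest. Ccrl2, an atypical receptor, had 8.18, 8.83, 15.6, 19.2 and 17.9 CPM in transformed 4 to 8, against 15.3, 13.4 and 12.5 CPM in the parental libraries. Ccr4 had 3 counts in transformed 4, equal to the counting limit, and between 0.74 and 1.68 CPM in the other 7 libraries. Transformed 4 was thus below every other library for Ccr4 and Ccrl2 as well, and Ccr4 is a low-level gene whose counts are few.

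Among 24 metabolic members, 23 were below the parental mean in transformed 4 (median -0.52). Alas1, the first enzyme of heme synthesis (106233455 to 106248654), had 98.6, 229, 433, 178 and 326 CPM in transformed 4, 5, 6, 7 and 8, against 245, 418 and 470.1 CPM in parental 1, 2 and 3. It varied among parental libraries as well, and parental 1 and 2 lay within the transformed range. Impdh2, of guanine nucleotide synthesis, had 219, 328, 302, 197 and 316 CPM in transformed 4 to 8, against 337, 324 and 298 CPM in the parental libraries. Uqcrc1, a core subunit of respiratory complex III, had 212, 307, 268, 212 and 289 CPM in transformed 4 to 8, against 251, 268 and 249.9 CPM in the parental libraries. For both, transformed 4 and 7 were the lowest. Gpx1, a glutathione peroxidase named after its values were seen, had 82.1, 177, 167, 111 and 163 CPM in transformed 4 to 8, against 216, 264 and 264 CPM in the parental libraries, with transformed 4 at 33.1% of the parental mean.

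Of 9 members listed under survival and death, 7 were below the parental mean in transformed 4 (median -0.38). Pdcd6ip, of the ESCRT pathway (113651744 to 113708259), had 159, 243, 250.03, 291 and 265 CPM in transformed 4, 5, 6, 7 and 8, against 229.8, 242 and 241 CPM in parental 1, 2 and 3. Atp1b3, a sodium pump subunit rather than a death gene, had 104, 169, 162, 146 and 175 CPM in transformed 4 to 8, against 127, 139.8 and 131 CPM in the parental libraries. Transformed 4 was the lowest library in both. The 2 others were the close paralogs Bcl2a1a and Bcl2a1d, antiapoptotic relatives of Bcl2, whose shared reads cannot be assigned. Bcl2a1d had 1.39, 0.218, 0.88, 2.03 and 0.19 CPM in transformed 4 to 8, against 0.195, 0.24 and 0 CPM in the parental libraries, so that transformed 4, 6 and 7 were above all parental libraries and transformed 5 and 8 were not. Bcl2a1a had 1.37, 0.119, 1.36, 1.91 and 0.106 CPM in transformed 4 to 8, against 0.156, 0.499 and 0 CPM in the parental libraries, with the same 3 libraries high. Both genes passed the CPM limit only through these 3 libraries (means of 0.636 CPM for Bcl2a1d and 0.685 CPM for Bcl2a1a). Their high level there was thus a condition of membership, and nothing is read from it.

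All 19 members of the secretory and membrane traffic list were below the parental mean in transformed 4 (median -0.41), from -0.73 to -0.14, and 16 had their lowest level there. Copb2, a coatomer subunit (98563721 to 98588382), had 158, 233, 221, 226 and 254 CPM in transformed 4, 5, 6, 7 and 8, against 202, 208 and 200.1 CPM in parental 1, 2 and 3. Usp4, a deubiquitinase placed in this list, had 109, 152, 143, 153 and 153 CPM in transformed 4 to 8, against 139, 145 and 139 CPM in the parental libraries. Usp19, a deubiquitinase of the endoplasmic reticulum, had 149, 185, 171, 139.6 and 159 CPM in transformed 4 to 8, against 189, 201 and 202 CPM in the parental libraries. Copb2 and Usp4 were low in transformed 4 alone, and Usp19 was lower still in transformed 7.

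**Figure D5:**
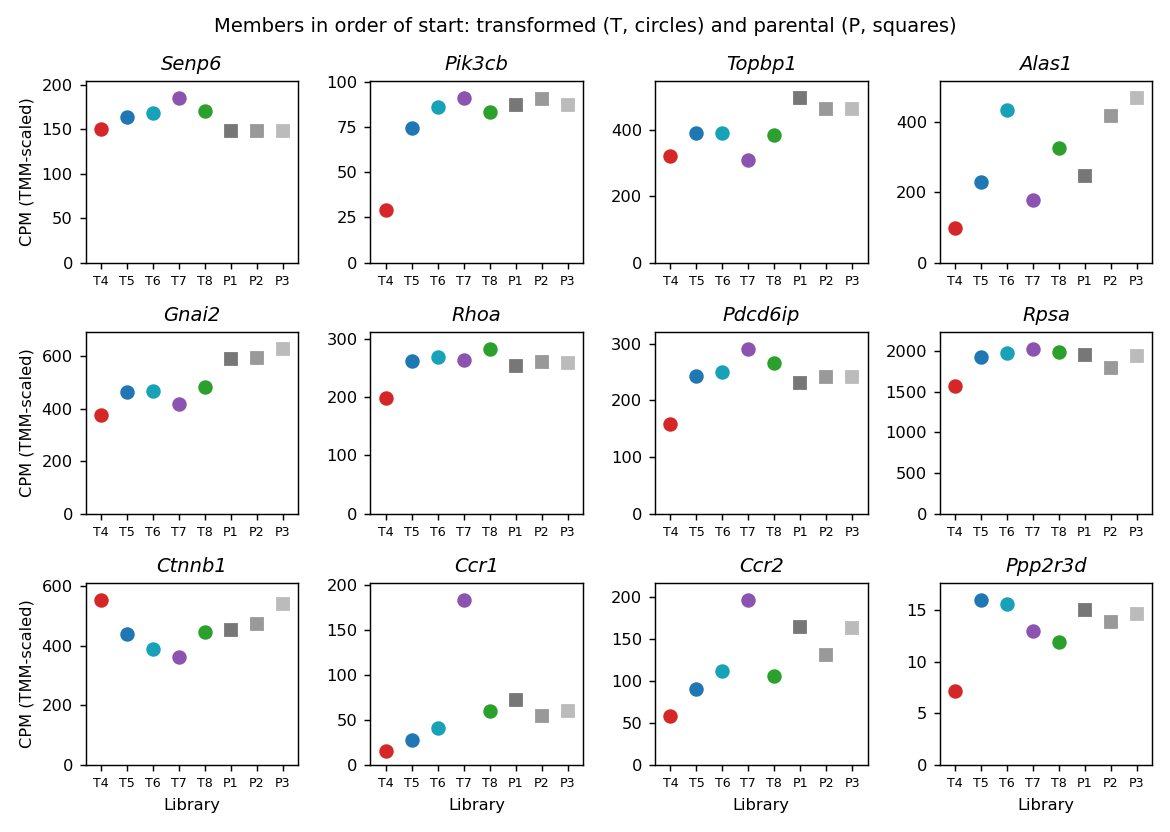
TMM-scaled CPM (vertical axes, linear, from 0) of 12 members in order of their start, in transformed 4 to 8 (T, circles) and parental 1 to 3 (P, squares). Transformed 4 is lowest in Pik3cb, Alas1, Rhoa, Gnai2, Pdcd6ip, Rpsa, Ccr2, Ccr1 and Ppp2r3d, at the parental level in Senp6 and highest in Ctnnb1.

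Of all members, 59 of 317 were at or above the parental mean in transformed 4, among them 27 of the 37 pseudogenes. Of 205 coding members with a mean of 5 CPM or more, 192 were below the parental mean in transformed 4 and 13 were not. Of these 13, Senp6 and Phip lie before 85 Mb. From 85 Mb on, 4 with a mean of 50 CPM or more were not below it: Ctnnb1, Cish, Zbtb38 and Rps27rt, all named after their values were seen except Ctnnb1. Ctnnb1, which encodes beta-catenin (120929216 to 120960507), had 555, 439, 389.9, 364 and 445 CPM in transformed 4, 5, 6, 7 and 8, against 453, 472 and 540.2 CPM in parental 1, 2 and 3, with transformed 4 the highest of the 8 libraries. Cish, a feedback inhibitor of cytokine signalling that STAT5 induces, had 98.4, 104, 123, 158 and 113 CPM in transformed 4 to 8, against 57.04, 103 and 98.7 CPM in the parental libraries, where parental 1 was low. Rps27rt, a copy of a ribosomal protein gene, had 237, 220.2, 195, 219 and 213 CPM in transformed 4 to 8, against 218, 200.1 and 212 CPM in the parental libraries, and its reads may be shared with the parent gene.

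At the other end, 14 of the 205 were lower by more than 1 on the log2 scale in transformed 4. Those with the largest differences were Ccr1 (-2.001), Alas1 (-1.88) and Pik3cb (-1.60), followed by Gpx1. Plscr1, a phospholipid scramblase chosen after its values were seen like the next genes, had 48.3, 98.4, 121, 199.9 and 115 CPM in transformed 4 to 8, against 109, 115 and 121 CPM in the parental libraries. Nbeal2, known for platelet granules, had 134, 248.6, 216, 132 and 192 CPM in transformed 4 to 8, against 312, 278 and 324 CPM in the parental libraries. Tent5a, of the poly(A) polymerase family, had 9.65, 17.7, 24.4, 32.9 and 15.9 CPM in transformed 4 to 8, against 16.8, 25.2 and 22.2 CPM in the parental libraries. Transformed 4 was the lowest of the 8 libraries for Plscr1 and Tent5a, while for Nbeal2 transformed 7 was just below it. The last member to start, Ppp2r3d, a phosphatase regulatory subunit (124422622 to 124476898), had 7.11, 15.99, 15.6, 12.9 and 11.9 CPM in transformed 4, 5, 6, 7 and 8, against 14.99, 13.9 and 14.6 CPM in parental 1, 2 and 3, so the lower level reached the end of the annotated genes. Of members of 5 CPM or more, the highest in transformed 4 were 6430571L13Rik, the processed pseudogene Gm4734 and the microRNA gene Mir6236, at log2 differences of 1.12, 0.54 and 0.53. Mir6236 had 10.5, 6.53, 9.77, 4.05 and 11.4 CPM in transformed 4 to 8, against 7.01, 6.69 and 8.28 CPM in the parental libraries, and its groups overlapped.

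Values next to the CPM limit were close on both sides. Just above it, the noncoding Gm47113 had 0.121, 0.456, 0.484, 1.14 and 0.507 CPM in transformed 4 to 8, against 0.703, 0.3995 and 0.57 CPM in the parental libraries. The pseudogene Gm7183 had 0.525, 0.575, 0.55, 0.485 and 0.698 CPM in transformed 4 to 8, against 0.684, 0.519 and 0.504 CPM in the parental libraries. Ky, a muscle gene, passed through 1 library, transformed 7, with 0.0808, 0.198, 0.264, 3.28 and 0.275 CPM in transformed 4 to 8, against 0.137, 0.16 and 0.197 CPM in the parental libraries. Just below it were the small nucleolar RNA gene Snora62, the pseudogene Gm28688 and the chemokine receptor gene Cxcr6, with log2 differences of -0.76, -0.14 and 0.19 in transformed 4. Cxcr6 had 0.565, 0.258, 0.374, 0.914 and 0.402 CPM in transformed 4 to 8, against 0.469, 0.419 and 0.592 CPM in the parental libraries, so that the groups overlapped.

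The comparison the labels give sets all 5 transformed libraries against the 3 parental ones, and in it few members passed. With edgeR's quasi-likelihood test and Benjamini-Hochberg adjustment over 17733 genes, 2 members of 317 were higher (0.631%) and 12 lower (3.79%) at an adjusted p of 0.05. The background over all tested genes was 0.908% higher and 2.1% lower, and 7 and 7 of 489 tested genes on the rest of chromosome 9. The median log2 fold change was -0.046 for members and 0.017 for all tested genes. Since the rule used the parental libraries as its base, nothing is read from these counts. They rested on the libraries in the fit: without transformed 4, 18 members were higher (5.68%) and 40 lower (12.6%), where 6.25% and 9.26% of all tested genes were. Without transformed 7, 3 members were higher (0.949%) and 35 lower (11.1%), where 2.87% and 4.76% of all tested genes were. Without parental 1, 2 or 3 there were 0 higher each and 1, 0 and 0 lower by edgeR, with 51, 48 and 40 lower and 5, 11 and 5 higher at an unadjusted p under 0.05. The share of all tested genes at that unadjusted limit was not counted, so nothing is read from the unadjusted counts. Without transformed 5, 6 or 8 there was 1 higher and 1 lower each. In these last 6 fits between 0.0166% and 0.0907% of all tested genes were called higher and between 0.116% and 0.397% lower.

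Members that fell in this comparison did so in all transformed libraries and not in transformed 4 alone. The test weighs the spread within each group, so a gene low in transformed 4 alone is unlikely to be called, and nothing is read from this. Nicn1, a component of the tubulin polyglutamylase complex (108290429 to 108296498), was at 12.2 ± 0.745 CPM (SD, n = 5) in transformed and 20.8 ± 2.09 CPM (SD, n = 3) in parental libraries, a log2 fold change of -0.77 (edgeR adjusted p = 0.0121). It had 11.2, 12.2, 13.04, 11.6 and 12.7 CPM in transformed 4 to 8, against 23.1, 18.98 and 20.3 CPM in the parental libraries, and the groups did not overlap. Ppm1m, a phosphatase (106194947 to 106199746), fell with a log2 fold change of -0.53 (edgeR adjusted p = 0.0273) and had 32.97, 37.97, 37.6, 33.7 and 34.4 CPM in transformed 4 to 8, against 47.6, 54.5 and 51.01 CPM in the parental libraries. Neither gene's groups overlapped. The unclassified Gm37249, with 1.47, 1.81, 1.61, 1.599 and 1.35 CPM in transformed 4 to 8, against 4.44, 2.84 and 3.09 CPM in the parental libraries, fell likewise (-1.14, edgeR adjusted p = 0.0236). Gnai2 (-0.45, edgeR adjusted p = 0.0447) and the inositol hexakisphosphate kinase gene Ip6k1 (-0.45, edgeR adjusted p = 0.0307) also passed. Ip6k1 had 69.9, 79.3, 74.7, 66.5 and 75.9 CPM in transformed 4 to 8, against 101, 99.5 and 99.97 CPM in the parental libraries, again without overlap. Tgfbr2, a receptor of TGF-beta chosen after its values were seen, had 30.5, 30.4, 34.3, 31.5 and 32.6 CPM in transformed 4 to 8, against 37.4, 47.04 and 47.9 CPM in the parental libraries (log2 fold change -0.47, edgeR adjusted p = 0.0495). Here transformed 4 was not the lowest, and the groups again did not overlap. The other members that fell were Cep70, Tbc1d2b, 5830418P13Rik, Pfkfb4, 5830454E08Rik and Hyal1.

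Both members that rose were at low levels and were high in transformed 4 too. Cspg5, a chondroitin sulfate proteoglycan (110243783 to 110262576), was at 3.58 ± 0.717 CPM (SD, n = 5) in transformed and 1.34 ± 0.137 CPM (SD, n = 3) in parental libraries (log2 fold change 1.42, edgeR adjusted p = 0.0129). It had 2.97, 4.72, 3.52, 3.71 and 2.98 CPM in transformed 4 to 8, against 1.43, 1.18 and 1.402 CPM in the parental libraries, with every transformed library above every parental one. 6430571L13Rik (107340602 to 107352422) had 5.896, 5.97, 5.81, 9.99 and 5.71 CPM in transformed 4 to 8, against 3.26, 2.797 and 2.15 CPM in the parental libraries, with transformed 7 the highest. It was at 6.67 ± 1.86 CPM (SD, n = 5) in transformed and 2.74 ± 0.56 CPM (SD, n = 3) in parental libraries (log2 fold change 1.28, edgeR adjusted p = 0.0331). Of these 14 members, 14 were still called without transformed 4 and 14 without transformed 7. By contrast 2 were called with lane as a covariate, 1 without parental 1, 0 without parental 2 or 3, and 2 each without transformed 5, 6 or 8.

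The sequencing lane in the labels was checked beside the main pattern. Transformed 4 shared lane 7 with transformed 6, transformed 7 and parental 2. Against parental 2 alone, the gap between members and the rest of chromosome 9 was -0.39 in transformed 4, -0.021 in transformed 6 and -0.059 in transformed 7. In lane 6, against parental 1 and 3, it was -0.012 in transformed 5 and -0.027 in transformed 8. The values rest on the same libraries and genes as the rule, and the part of the lane was not tested.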

How the data were processed

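Gene-level read counts, not normalised, were deposited by the authors as 1 table with 1 column per library and 0 columns beyond the 8 libraries. Per the submitters' processing notes, STAR 2.5.3a and featureCounts 1.5.3 were used with builds mm10 and GRCm38.p5. For strand and multi-mapping the settings are not given in these sources, and values of paralogs, pseudogenes and overlapping genes are uncertain. Positions, biotypes and transcript sequences came from GENCODE (GRCm38, Ensembl 96); 105 genes, 54 of them with counts (0.0212% of all), had no position. The least different pair of libraries had a chi-square per degree of freedom of 18.0, more than counting error alone gives, so none was a repeat sequencing of another. Repeated preparations of the same culture cannot be told from separate cultures this way.

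Membership used CPM on column totals. Levels are TMM-scaled CPM, and differences use log2 CPM with a prior count of 2, minus the mean of the 3 parental libraries. Calls came from edgeR 4.0.16 in R 4.3.3 (filterByExpr, TMM, robust quasi-likelihood F test, 2-sided, threshold 0.05), tested on simulated data. DESeq2 1.42.0 and limma-voom 3.58.1, other scalings, filters, limits and left-out libraries were alternatives. The members and lists were chosen with earlier results of these data known. Genes were named by a rule: the 3 members of each list with the highest mean CPM, 3 genes at each side of both limits, the 3 called members per direction with the smallest p, the 3 lowest and 3 highest in transformed 4 at 5 CPM or more, the first and last member and the member with the highest level. Others named were chosen after their values were seen, including the first coding members past the limit, Ccr4, Zbtb38 and both Bcl2a1 genes. Promoters came from RefSeq (GRCm38.p6). Some genes are not reported here.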

Additional observations from a re-analysis of the deposited data

Results flagged for a closer look

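Libraries far from the other transformed ones are listed here as a description. In each case the gap to the nearest library was over 0.71 of the range of the 5 transformed libraries. The members and lists were chosen on these values, and Ccr1, Pik3cb, Gm4734 and 6430571L13Rik also for their level in transformed 4. The usual chance rate of about 1 in 20 groups therefore does not apply, and no test is made.

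Of 3 summaries, all 3 had transformed 4 low: the median log2 difference of members (-0.40), its gap to the rest of chromosome 9 (-0.36) and the share of counts held by members (1.64%). Of 8 list medians, 4 had transformed 4 low: replication checkpoint, repair and mitosis (-0.54), RNA processing and translation (-0.38), metabolism and mitochondria (-0.52) and survival and death (-0.38). Of 39 named members, 9 had such a gap. Transformed 4 was low in Rad54l2 (69.5 CPM), Rhoa (198 CPM), Rpsa (1565 CPM), Usp4 (109 CPM) and Pik3cb (29.1 CPM), and high in the pseudogene Gm4734 (8.26 CPM). Transformed 7 was high in Ccr1 (184 CPM), Ky (3.28 CPM) and 6430571L13Rik (9.99 CPM). Ky passed the CPM limit only through transformed 7. Its high level there was thus a condition of membership, and nothing is read from it.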

How the results depend on the processing

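The median of members and their gap to the rest of chromosome 9 moved by less than 1 SD between transformed libraries (0.17 and 0.15) under each alternative, but that SD is mostly the distance of transformed 4 itself and is wide for the others. The gap of transformed 7 ran from -0.12 to 0.0038, and the median of transformed 8 from -0.094 to 0.025. The alternatives were RLE, upper-quartile or no scaling factors, CPM limits of 5 or any count, a prior count of 0.5, starts at 70 or 90 Mb, coding genes alone, means, other chromosomes as comparison, each parental library left out and each lane alone. A start at 85 Mb was chosen after seeing the data. The gap of transformed 4 ran from -0.41 to -0.25, the weakest with genes at any count, where depth limits each value. The median over all genes moved by at most 0.061 from the TMM value under another scaling.

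Counts of called members moved more. Against 2 higher and 12 lower, DESeq2 gave 4 and 36 (4.81% and 5.67% of all tested genes were called higher and lower), and lane as a covariate 1 and 2 (0.0846% and 0.445%). Leaving out 1 library each gave from 0 to 18 higher and from 0 to 40 lower. The cause was not tested. No called member changed direction under the 14 alternatives. No paired analysis was possible because the groups share no replicate number.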
